A study of Sus scrofa with 6 samples.

Results

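The miR-30 members examined here were ssc-miR-30a-5p, ssc-miR-30c and ssc-miR-30d (ssc stands for Sus scrofa and is left out from here on), together with ssc-miR-30a-3p from the opposite arm of the miR-30a hairpin. They were matched to rows by exact name and make up 4 of the 236 rows with a pig miRNA name on the microarray. Liver miRNA was profiled on 6 single-dye arrays, 3 for Large White (LW), a Western breed, and 3 for Erhualian (EHL), a Chinese indigenous breed of high adiposity. All piglets were male and newborn, came from purebred sows per the study's methods, and had no treatment named in the labels. Each array carried total RNA pooled from 2 littermates, so that 3 litters and 6 piglets stood behind each breed. The piglets came from 2 neighbouring farms, and the sources used here do not say which breed came from which farm, so the part of the farm was not tested. The question of the comparison was whether the livers of the breeds differ in these miRNAs at birth.

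miR-30 is a family of miRNAs conserved among mammals. A miRNA hairpin is cut into a duplex whose arms are called 5p and 3p, and usually 1 arm is loaded into the silencing complex while the other is degraded. The 5p members miR-30a to miR-30e share the same seed, the stretch near the 5′ end that pairs with target mRNAs, and so have overlapping predicted targets, whereas the 3p arms carry a different seed. In the literature the family is known for roles in hepatobiliary development, autophagy and lipoprotein secretion in the liver.

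In the pig gene table of RefSeq (assembly Sscrofa11.1), all 6 miR-30 genes lay in pairs in which each gene was the miRNA gene nearest to the other. MIR30A paired with MIR30C-2, MIR30D with MIR30B, and MIR30E with MIR30C-1. Mature miR-30c can come from both of its genes, and its probe cannot tell them apart.

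Every array carried the hepatocyte signal. The row of miR-122, the most abundant miRNA of hepatocytes, was listed between 18287 and 28071, and that of miR-192 between 3640 and 5592, while miR-194, another hepatocyte miRNA, was blank on every array. Rows of skeletal muscle miRNAs were blank except miR-133a-3p, at 14 to 17 on 3 arrays. Of the 3 pancreatic miRNAs, 2 had a row, blank on every array, and miR-375 had none. The study's sequencing of these livers counted reads of miR-133a, miR-216 and miR-375, so a blank or missing row does not show absence. The summed signal of the erythroid miRNAs miR-451 and miR-486 was 124 to 249 in LW and 78 to 410 in EHL. The lists of stellate cells and fibroblasts, vascular smooth muscle and endothelium were bright on every array. Sums over the 6 arrays were 4273 to 6636 for stellate cells and fibroblasts (miR-199a, miR-199b, miR-214) and 846 to 1344 for vascular smooth muscle (miR-143, miR-145). They were 2209 to 4524 for endothelium (miR-126). Of the 4 miRNAs listed for other blood cells, 2 had a row and miR-223 and miR-150 had none. miR-142 was listed on 1 array, at 12. miR-155 was blank on every array although the study's sequencing counted its reads, so the low sum does not show absence of these cells. The arrays listed a value for 101 to 134 named rows, with a lowest listed signal between 10 and 16. In whole liver, fewer cells of a type and less RNA per cell cannot be told apart.

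ssc-miR-30a-5p, known as a repressor of the autophagy gene beclin 1, was about equally bright in both breeds. Its normalized signal was 310, 266 and 294 on LW arrays 1, 2 and 3, and 327, 228 and 312 on EHL arrays 1, 2 and 3. The EHL arrays held both the highest and the lowest of the 6 values, so that the breeds overlapped fully. LW had a mean of 290 ± 22.3 and EHL one of 289 ± 53.4 (SD over 3 arrays, n = 3 in both breeds). By limma, the EHL-to-LW ratio on the log2 scale was -0.0199, with a standard error of 0.26 and an adjusted p of 0.974. The 95% interval of the ratio ran from 0.660-fold to 1.47-fold.

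ssc-miR-30c, known to lower lipoprotein secretion through microsomal triglyceride transfer protein, was the steadiest member within LW. Its signal was 825, 775 and 775 on LW arrays 1, 2 and 3, and 790, 623 and 906 on EHL arrays 1, 2 and 3. All LW values lay inside the EHL range. The mean was 792 ± 28.9 in LW and 773 ± 142 in EHL, and limma gave a log2 ratio of -0.0507, with a standard error of 0.25 and an adjusted p of 0.974. Its interval ran from 0.651-fold to 1.43-fold.

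ssc-miR-30d, the partner of miR-30b in the genome, had the largest mean difference of the 3 members of the 5p arm. Its signal was 1511, 963 and 1226 on LW arrays 1, 2 and 3, and 1214, 1329 and 1906 on EHL arrays 1, 2 and 3. The highest value was on an EHL array and the lowest on an LW array, but LW array 1 stood above 2 of the EHL arrays. The mean was 1233 ± 274 in LW and 1483 ± 371 in EHL. The log2 ratio of 0.26 was smaller than its standard error of 0.29 (limma, adjusted p = 0.806), and the interval ran from 0.760-fold to 1.89-fold.

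ssc-miR-30a-3p, whose seed differs from that of the 5p members, was dim in both breeds. Its signal was 21, 25 and 25 on LW arrays 1, 2 and 3, and 25 and 17 on EHL arrays 1 and 3. The cell of EHL array 2 was blank, which gives no level, and EHL array 2 also had the fewest listed rows (101) and the highest lowest-listed signal (16). The mean was 23.7 ± 2.31 in LW (n = 3 arrays) and 21.0 ± 5.66 in EHL (n = 2 arrays). With that array dropped for this row, limma gave a log2 ratio of -0.19, with a standard error of 0.31, an adjusted p of 0.833 and an interval from 0.537-fold to 1.42-fold.

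**Figure D1:**
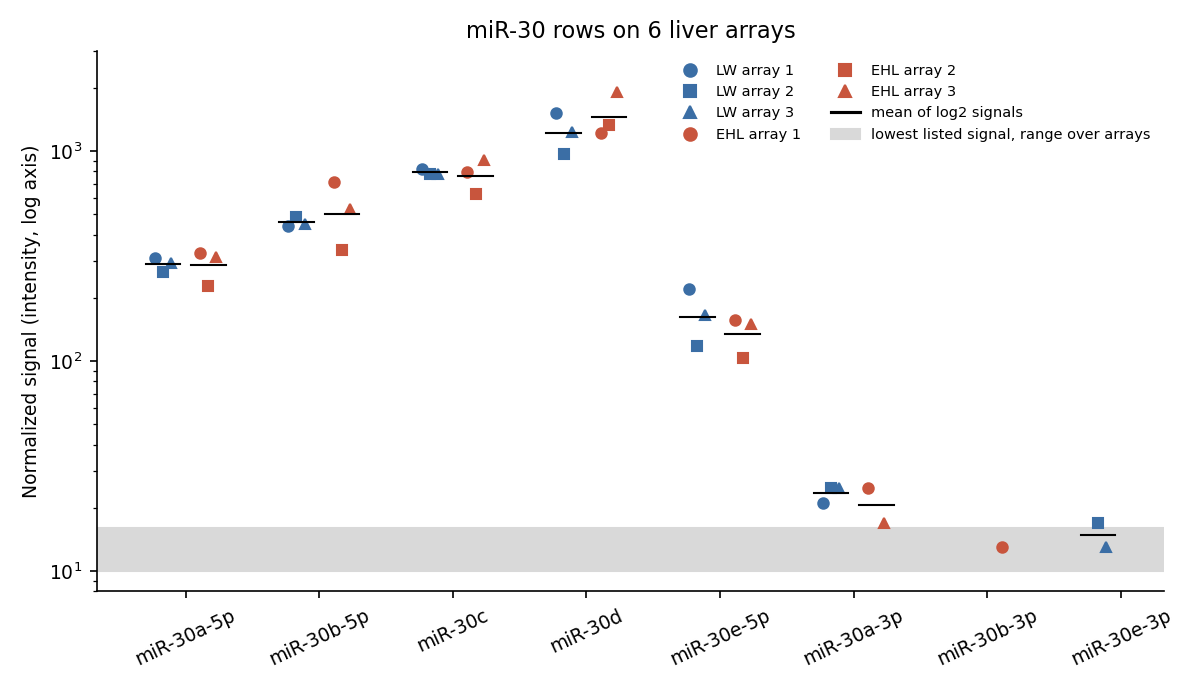
Normalized signal (intensity, log axis) of all 8 miR-30 rows on the LW arrays (blue) and EHL arrays (red), with a symbol for each array and a black line at the mean of the log2 signals. The 5p rows lie between 103 and 1906 with overlapping breeds, while the 3p rows lie between 13 and 25, at or just above the grey band of the lowest listed signals (10 to 16).

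By limma, 0 of the 4 members passed the FDR of 15% that the study used for its array, beside 1 of all 109 rows tested, or 0.917%. At an unadjusted p under 0.05, limma gave 0 of the 4, beside 13 of 109, or 11.9%. A recomputed SAM statistic also called 0 of the 4, and called 8 rows higher and 0 lower in EHL over the table. It is not the software the study used, and the counts differ. At the same FDR, the study listed array miRNAs both higher and lower in EHL, more of them higher, and no miR-30 row. The signals of the breeds overlapped for all 4 members. Among the 96 rows listed on all arrays, which do not include miR-30a-3p, they did not overlap for 18, or 18.8%. The members are too few to be set against that share. The members' log2 ratios lay between -0.19 and 0.26, and the median over the 109 rows was 0.0247. A p above the threshold does not show that the breeds were equal, and the intervals leave room for a change of up to 1.89-fold in miR-30d.

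**Figure D2:**
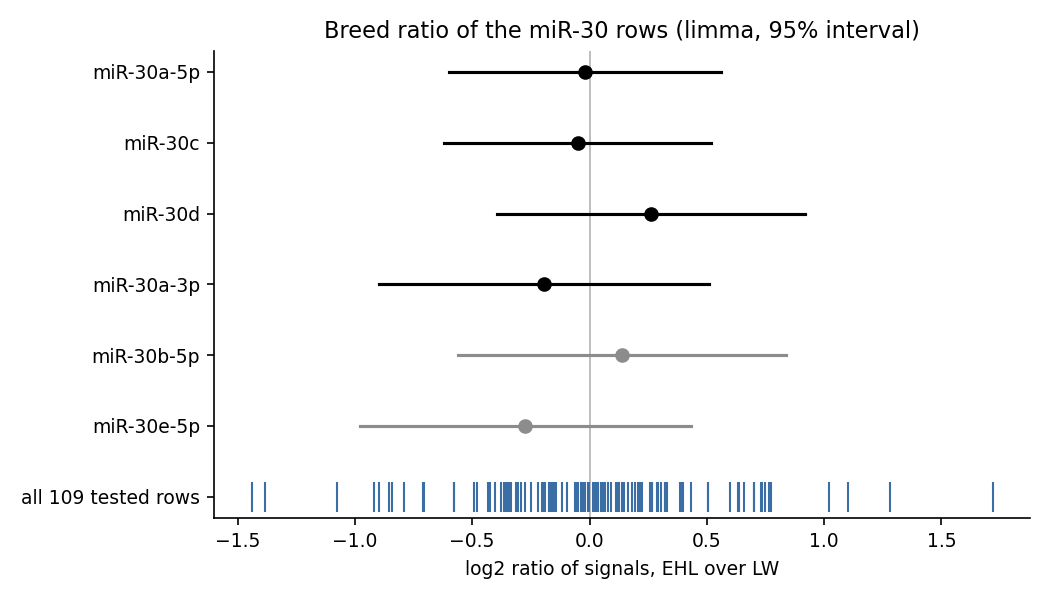
log2 ratio of signals, EHL over LW, with the 95% interval of limma for the 4 members (black) and 2 other miR-30 rows (grey), and each of the 109 tested rows as a tick in the bottom line. All 6 intervals include 0, and the members' ratios of -0.19 to 0.26 sit in the middle of the ticks.

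The other miR-30 rows gave a similar picture. miR-30b-5p was listed at 439, 484 and 449 on LW arrays 1, 2 and 3 and at 709, 337 and 531 on EHL arrays 1, 2 and 3, and limma put its log2 ratio at 0.14, with a standard error of 0.31 and an adjusted p of 0.910. The LW values were close together and lay inside the EHL range. miR-30e-5p was listed at 220, 118 and 165 in LW and at 157, 103 and 150 in EHL, and limma put its log2 ratio at -0.27, with a standard error of 0.31 and an adjusted p of 0.807. Its breeds overlapped as well. The opposite arms miR-30b-3p and miR-30e-3p had too few values to be tested, with 13 on EHL array 1 for the former and 17 and 13 on LW arrays 2 and 3 for the latter.

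The 5 rows of the shared seed had a value on every array, and the 3 rows of the opposite arm were dim or blank. The within-array difference of log2 signals, 5p minus 3p, describes this for miR-30a. It compares the brightness of probes that may hybridize differently, so it is not a ratio of abundance, and it was not tested against 0. The difference was 3.88, 3.41 and 3.56 on LW arrays 1, 2 and 3, and 3.71 and 4.20 on EHL arrays 1 and 3. On the linear scale, the 5p signal was 10.6 to 14.8 times the 3p signal in LW and 13.1 and 18.4 times in EHL.

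A probe response that is proportional to its target would cancel when the arm difference is compared between breeds. Whether that holds near the lowest listed signals, where miR-30a-3p lies, was not tested, and an offset of 32 added to the signals took the change given next to 0.20. The mean was 3.62 ± 0.24 in LW (n = 3 arrays) and 3.95 ± 0.35 in EHL (n = 2 arrays). The higher mean of EHL rested on array 3, where miR-30a-3p was at 17, and the value of array 1 lay inside the LW range. The change was 0.34 on the log2 scale, with a 95% interval from -0.48 to 1.15 and a two-sided exact permutation p of 0.4, where 3 arrays against 2 cannot give a p below 0.2. Without EHL array 3 the change was 0.0923, and without EHL array 1 it was 0.58, each with a single EHL array left. Where both arms of the other hairpins were listed, the difference was 5.77 for miR-30b on EHL array 1, and 2.80 and 3.67 for miR-30e on LW arrays 2 and 3.

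The same approach was used for the 5p members, whose pairs were chosen after their signals had been seen. The difference of miR-30c minus miR-30a-5p hardly varied, at 1.41, 1.54 and 1.40 on LW arrays 1, 2 and 3 and 1.27, 1.45 and 1.54 on EHL arrays 1, 2 and 3. Its change from LW to EHL was -0.0309, with a 95% interval from -0.28 to 0.22. The intervals of these changes used the pooled SD of each pair alone and not limma, so their widths cannot be compared with those of the breed ratios. Under quantile normalization that change was 0.27, opposite in sign and outside the interval. The difference of miR-30d minus miR-30c was 0.87, 0.31 and 0.66 in LW and 0.62, 1.09 and 1.07 in EHL, and its change was 0.31 (interval -0.31 to 0.94). Here EHL arrays 2 and 3 stood above all LW arrays, while EHL array 1 lay among them. For miR-30d minus miR-30a-5p the change was 0.28 (interval -0.44 to 1.005), and 0.60 under quantile normalization. With single arrays left out, the lowest change of miR-30d minus miR-30a-5p was 0.15 (EHL array 3 left out) and the highest 0.51 (EHL array 1 left out). For miR-30d minus miR-30c the lowest was 0.16 (LW array 2 left out) and the highest 0.47 (EHL array 1 left out). The two-sided exact permutation p was 0.9, 0.3 and 0.3 for these pairs, and at least 0.533 after Benjamini-Hochberg adjustment over the 4 pairs compared, with 0.1 the smallest p for 3 arrays against 3.

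**Figure D3:**
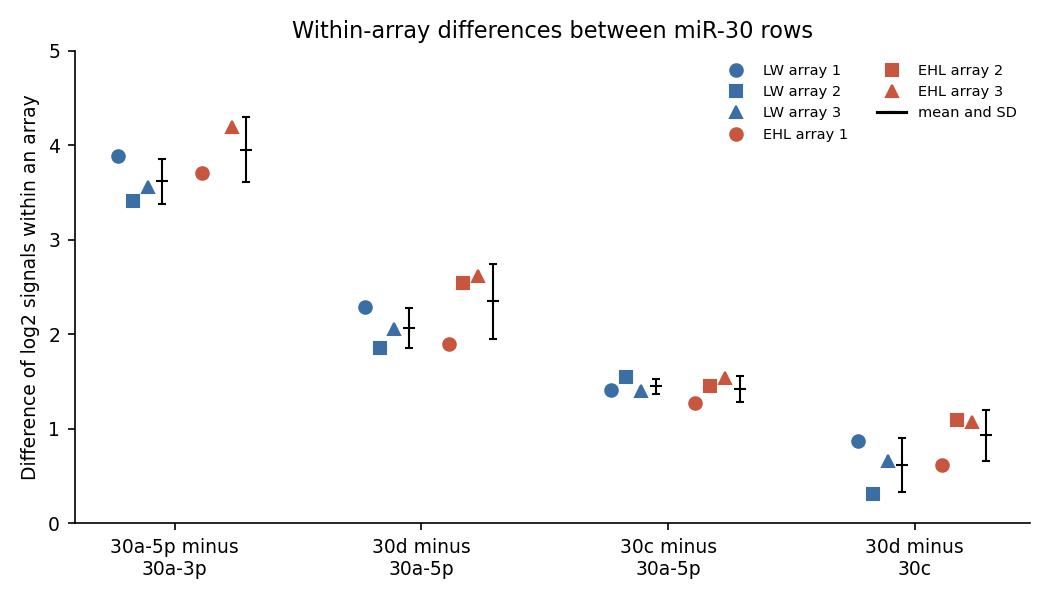
Difference of log2 signals between miR-30 rows within each array, for the arms of miR-30a and for pairs of 5p members, with a symbol per array and the mean with SD of each breed in black. The arm difference lies between 3.41 and 4.20 on the 5 arrays that list both arms, and miR-30c minus miR-30a-5p stays between 1.27 and 1.54 on all 6.

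Across arrays, miR-30a-5p and miR-30c varied less than most rows. The within-breed SD of the log2 signal was 0.22 for miR-30a-5p and 0.20 for miR-30c, and 12 and 10 of the 96 rows listed on all arrays had a smaller one. It was 0.33 for miR-30d, close to the median of 0.35. The spread within each breed was described and not tested. The SD was 0.0521 in LW and 0.27 in EHL for miR-30c, 0.11 and 0.28 for miR-30a-5p, and 0.33 and 0.34 for miR-30d. It was 0.0737 and 0.54 for miR-30b-5p, while miR-30e-5p went the other way, at 0.45 and 0.33. EHL array 2 gave the lowest signal of all 6 arrays in 4 of the 5 rows of the shared seed, with miR-30d as the exception. The median log2 signal of that array over the 96 rows was 7.73, between the 7.54 and 7.77 of the other arrays.

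The profiles over the 6 arrays, each centred on its own mean, were set side by side for the neighbouring genes. The root mean square difference was 0.0919 between miR-30a-5p and miR-30c, whose genes MIR30A and MIR30C-2 are neighbours. It was 0.45 between miR-30d and its neighbour miR-30b-5p, and 0.27 between miR-30e-5p and miR-30c. The pairs of miR-30 5p rows whose genes are not nearest neighbours lay between 0.21 and 0.39, so neighbours were not closer throughout. The median over all 4560 pairs of rows was 0.52, but the measure is also small for any rows that vary little, such as miR-30a-5p and miR-30c. miR-30d and miR-30b-5p stood on opposite sides of their means on LW arrays 1 and 2 and EHL arrays 1 and 2. On EHL array 2 miR-30d was almost at its mean. They parted most on EHL array 1, where miR-30b-5p was at its highest. These values describe 6 arrays, which share RNA pools and normalization across rows.

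**Figure D4:**
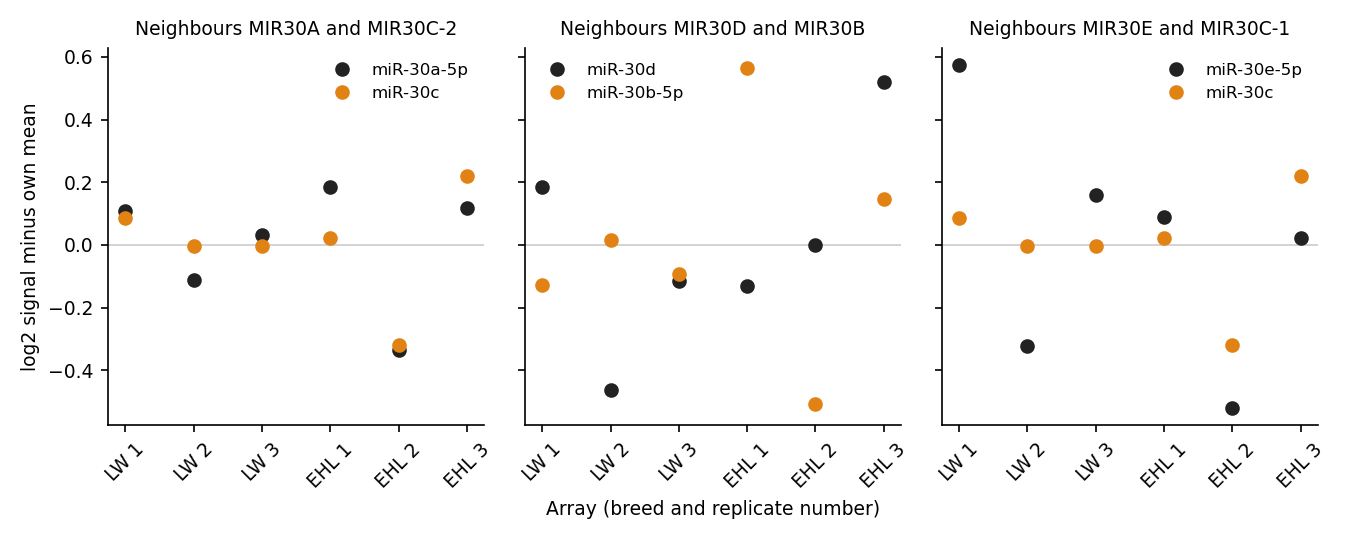
log2 signal minus the row's own mean over the 6 arrays, for miRNAs whose genes are nearest neighbours, with arrays in columns and a colour for each miRNA. miR-30a-5p and miR-30c lie close together on every array (root mean square difference 0.0919), while miR-30d and miR-30b-5p part most on EHL array 1 (0.45 over the 6 arrays).

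The rows nearest to the mean profile of the 5p members, among 93 other named rows, were miR-331-3p, miR-328 and miR-151-3p. Their root mean square differences were 0.0994, 0.14 and 0.16 over the 6 arrays. All were dim, at 40 to 56, 18 to 27 and 48 to 64. The measure is a distance, which favours rows that vary little, and not a correlation. The other rows of the shared seed ranked lower, with miR-30e-5p at place 24 and miR-30b-5p at place 27. The rows nearest to miR-30a-3p over its 5 listed arrays were let-7e, miR-152 and miR-424*, at 0.0730, 0.11 and 0.17. Its own opposite arm, miR-30a-5p, was at 0.27 and in place 16 of 96.

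For comparison, a list of 12 miRNAs known to be abundant in liver (among them miR-122, miR-192, miR-148a, miR-26a and miR-21) had 11 tested rows. By limma, 0 of the 11 rose and 0 fell at the FDR of 15% in EHL, with a median log2 ratio of -0.0045 and a range from -0.84 to 1.02. The members' ratios fell inside this range. The ratio of 1.02 was that of miR-378 (limma, adjusted p = 0.244). The study called miR-378 higher in EHL with its own SAM of the arrays, and its RT-qPCR gave a higher level as well.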

How the data were processed

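The pig miRNA array of LC Sciences was hybridized with Cy5-detected small RNA, 3 arrays for LW and 3 for EHL. Per the methods, background subtraction and LOWESS normalization came before deposit, and the deposited value is a fluorescence intensity on a linear scale for each row and array. The rule for blank cells is not given in the sources used here. The table held 236 named rows and 100 rows with an LRS label, which were left out. The number of arrays limits the precision.

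The intensities were converted to log2. The breeds were compared with limma 3.58.1 in R 4.3.3 (lmFit, eBayes, no covariate). The 109 named rows listed on 2 or more arrays in both breeds were tested, p-values were adjusted after Benjamini-Hochberg, and 0.15 was the threshold. Within-array differences were compared by exact permutation. The design foresaw 3 arrays against 3 for the arms of miR-30a, and the blank cell left 3 against 2. SAM was recomputed with 20 relabellings. Fits were tested on simulated data with planted changes larger than the ratios of the members. That test does not tell whether changes of the members' size would be found. Python 3.11.15, numpy 2.4.6 and pandas 2.3.3 served the rest.

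The members, lists and pairs were chosen with earlier results of these data known. Named rows were the 4 members, other miR-30 rows, the marker and liver lists, and the 3 rows nearest in profile. Alternatives were SAM, median centring, quantile normalization, row filters by listing and signal, a trended and robust fit, array weights, an offset of 32, linear means, each array left out and a replicate block. Quantile normalization over the rows listed on all arrays, and the alternatives of the pairs of 5p members, were chosen after seeing the data.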

Additional observations from a re-analysis of the deposited data

How the results depend on the processing

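No member passed the FDR of 15% under any alternative that gave a test, with adjusted p (limma, or q of SAM) from 0.359 to 0.987. The direction of miR-30d held throughout, with log2 ratios from 0.0667 to 0.42. When arrays were left out singly, miR-30a-5p ranged from -0.12 to 0.14, with 0.0297 without LW array 1 and 0.14 without EHL array 2. With quantile normalization over all listed values, it and miR-30a-3p were at -0.38. miR-30c ranged from -0.17 to 0.0964, the latter without EHL array 2, and was 0.0826 with quantile normalization over the rows listed on all arrays. miR-30a-3p ranged from -0.47 (EHL array 1 left out) to 0.0838 (EHL array 3 left out), each with a single EHL array remaining, assumed to vary like the rest. Those sign changes follow from the left-out arrays or, under quantile normalization, the cause was not tested. miR-30a-3p had no value under the filters for all 6 arrays and for a mean signal of at least 32.

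The arm difference of miR-30a was 2.53 in LW and 2.73 in EHL with log2(signal + 32), an offset above the dim arm by construction, and with each array left out it ranged from 3.48 to 3.72 in LW and from 3.71 to 4.20 in EHL. Its change ranged from 0.0923 to 0.58, and no alternative moved it by more than the spread between arrays.

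Over all rows, 1 was higher and 0 lower in EHL. SAM gave 8 higher, array weights 15 higher and 7 lower, and quantile normalization 0 higher and 0 lower, or 1 higher and 1 lower over the rows listed on all arrays. With each array left out, 0 to 13 were higher and 0 to 6 lower, most without EHL array 1, and 0 were higher without LW array 3, EHL array 2 or EHL array 3. The replicate block gave 0 higher. Arrays of the same number were not taken as paired, since each held a litter of its own breed and the sources used here pair no LW array with an EHL array. Their deviations had correlations of -0.50, -0.0115 and -0.66 over 96 rows, which cannot decide pairing. With the replicate block the log2 ratio of miR-30a-3p was -0.15, and those of the other members did not move. The cause of these counts was not tested.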
